A study of Chlamydomonas reinhardtii with 2 samples.

Results

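The nuclear genes of the mitochondrial respiratory chain and ATP synthase were described in the green alga Chlamydomonas reinhardtii, in its strains CC5325 and CC125. Members were the nuclear reference genes whose symbol begins with NUO, QCR, COX plus a digit, ASA plus a digit, ATP plus a digit or AOX plus a digit, or is CYC1. This gave 90 of the 17693 reference genes, spread over 17 chromosomes. The labels give wild type as the genotype of both strains, and both grew mixotrophically in TAP medium, which supplies acetate, with shaking at 25 °C under 20 μmol photons per m2 per s. Each strain gave 1 RNA library, so no difference between strains has a replicate check, no test was made, and intervals cover counting error only.

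In the respiratory chain, complex I takes electrons from NADH, complex III passes them from ubiquinol to cytochrome c, and complex IV hands them to oxygen. The proton gradient this builds drives complex V, the ATP synthase. The alternative oxidase takes electrons from ubiquinol straight to oxygen and pumps no protons. In this alga several subunits that most eukaryotes still encode in mitochondrial DNA are nuclear, among them the pair of fragments of cytochrome oxidase subunit II (COX2A and COX2B), COX3, ATP6, NUO3 and NUO11. Its ATP synthase also carries ASA subunits, which build the peripheral stalk and hold the enzyme as a dimer, and which are known from chlorophycean algae. Acetate enters metabolism as acetyl-CoA and feeds this chain through the tricarboxylic acid and glyoxylate cycles.

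By symbol the members fell into 39 genes of complex I, 8 of complex III, 9 of complex IV, 20 of complex V, 2 of alternative oxidase and 12 for assembly factors, which help to build the complexes and are not subunits. Another 3 members counted in complexes I and IV (NUOFAF1, NUOFAF2 and COX191) have symbols of assembly proteins too. The symbol rule leaves out complex II, the Rieske protein of complex III and cytochrome c.

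Depth over nuclear genes was low. Coverage is the deposited mean number of reads per base, and an estimated read count was made as coverage times gene span over the read length of 150 bases, an upper limit since spans include introns. Nuclear reference genes held 106556 estimated reads in CC5325 and 32002 in CC125, and Cre08.g374100, which has no symbol, took 30731 and 19313 of them. The members held 616 (95% Poisson interval 568 to 667) in CC5325 and 91 (73.3 to 112) in CC125. Aligned bases came to 5.81 Gb in CC5325 and 3.18 Gb in CC125, and nearly all lay outside the estimated reads of nuclear reference genes. The members' estimated reads made up 0.00159% and 0.000427% of the aligned bases. TPM is the deposited abundance per gene length, and none of the 90 members reached 1 TPM in either library. Few nuclear reference genes did, 1.15% of 17611 in CC5325 and 0.619% in CC125. The highest was 0.703 TPM in CC5325 and 0.298 TPM in CC125, both for ATP2.

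Most members were listed above 0 in CC5325 and fewer than that in CC125. In CC5325 72 of 90 were listed (80.0%), against 53.2% of the 17611 nuclear reference genes. In CC125 40 of 90 were listed (44.4%), against 20.9%. Both libraries listed 36 members, CC5325 alone 36, CC125 alone 4 and neither 14. Over the 17611 nuclear reference genes these counts were 3054, 6310, 618 and 7629. Among nuclear genes that have a symbol the shares listed in CC5325 and CC125 were 70.0% and 32.6%, closer to the members. Members were also shorter, with a median span of 2054 bases against 4326. In spans up to 1500 bases 29 of 34 members were listed in CC5325, against 24.7% of nuclear genes of that size, and 11 in CC125, against 10.7%. Between 1500 and 3000 bases the members' counts were 21 and 17 of 31, against 38.6% and 16.7% of nuclear genes. Above 3000 bases the members' counts were 22 and 12 of 25, against 62.0% and 23.8% of nuclear genes.

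**Figure D1:**
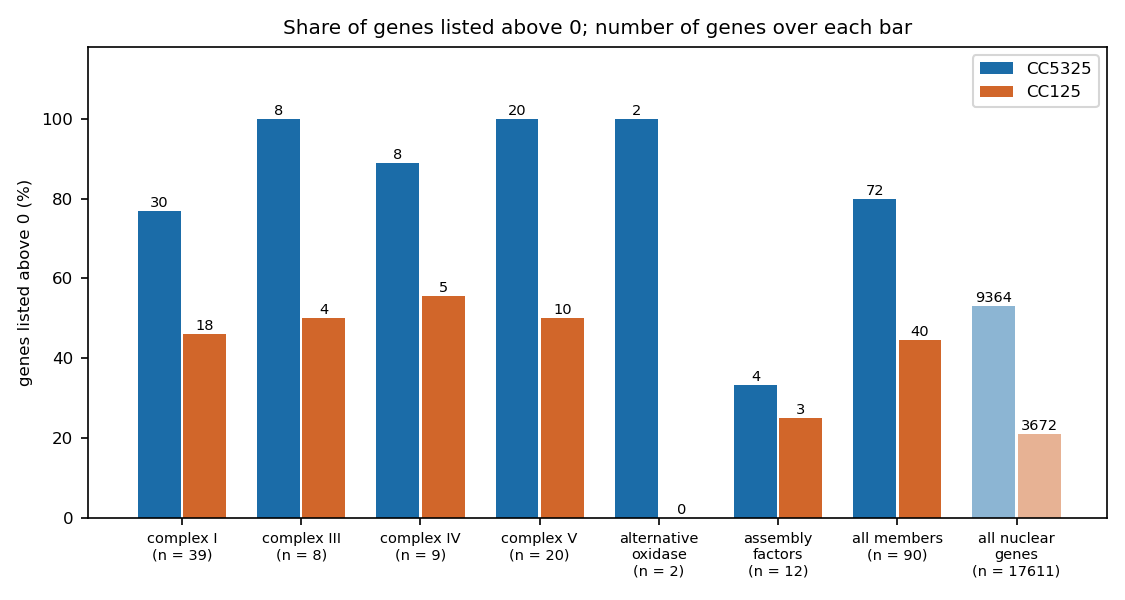
Percentage of genes listed above 0 in each library (y axis) for each group of members, for the 90 members together and for all nuclear reference genes, with the number of genes over each bar. All 20 complex V genes and all 8 complex III genes were listed in CC5325, while of 12 assembly factors 4 were.

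A value of 0 at this depth says little of a single gene. A count of 0 in CC125 allows up to 3 reads, which stand for 5.48 reads at the CC5325 depth of aligned bases. Of the 36 members listed in CC5325 and at 0 in CC125, 28 had no more than that in CC5325, so a lower level in CC125 was not detectable for them. The other 8 were NUO7, QCR2, CYC1, COX2A, ATP9B, ASA2, ASA3 and ASA4. Nuclear reads without the most read gene differed more between the libraries, 5.98-fold. On that scale the floor is higher, and QCR2, CYC1 and ATP9B fall below it. The share of all nuclear genes above either floor was not counted. For CYC1 the exact counting interval of the ratio per aligned base, whose lower end was 0.645, still includes equality, and for ATP9B the lower end was 1.08. The 4 members listed in CC125 and at 0 in CC5325 were NUOA11, NUOP4 and NUOP5 of complex I and the assembly factor NUOAF2, each on 0.714 to 1.46 estimated reads.

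Pooled over members, reads per aligned base were higher in CC5325, and so were those of nuclear genes in general. The CC5325 library held 1.83 times the aligned bases of CC125 (5.81 against 3.18 Gb), and after division by this the members' pooled ratio was 3.72-fold (95% counting interval 2.97 to 4.67). This scale rests almost wholly on bases outside the estimated reads of nuclear reference genes. All nuclear reference genes without the most read one gave 3.27-fold on the same scale. Set against those genes, the members' ratio was 1.14-fold (0.907 to 1.43), an interval that includes equality. Members took 0.812% of these nuclear reads in CC5325 (exact binomial interval 0.750 to 0.879) and 0.713% in CC125 (0.578 to 0.880), so the intervals overlap. By summed TPM, which does not weight genes by span, the members stood at 14.6 in CC5325 and 4.59 in CC125, 3.17-fold, against 2.43-fold for the same nuclear genes. By summed FPKM, which does not weight by span either, the members' ratio was 3.85-fold. TPM is scaled to another total than aligned bases, so TPM ratios and coverage ratios are not interchangeable.

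The complexes did not separate from each other beyond counting error. Complex I held 132 estimated reads in CC5325 and 21.6 in CC125, 3.35-fold per aligned base (2.08 to 5.42). Complex III held 47.8 and 9.74, 2.69-fold (1.31 to 5.83), and 5.82-fold without QCR1, its most read gene. Complex IV held 108 and 10.5, 5.64-fold (2.89 to 11.1). Complex V held 314 and 45.4, 3.79-fold (2.79 to 5.35). The ratio of complex IV over that of complex I was 1.69 (0.721 to 3.91), and the interval of each of the 6 pairs of complexes included 1. Complex V alone made up 51.0% of the members' reads in CC5325 and 50.2% in CC125. Complex I made up 21.4% and 23.8%, complex III 7.76% and 10.8%, and complex IV 17.6% and 11.6%. These shares grow with gene number and span.

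**Figure D2:**
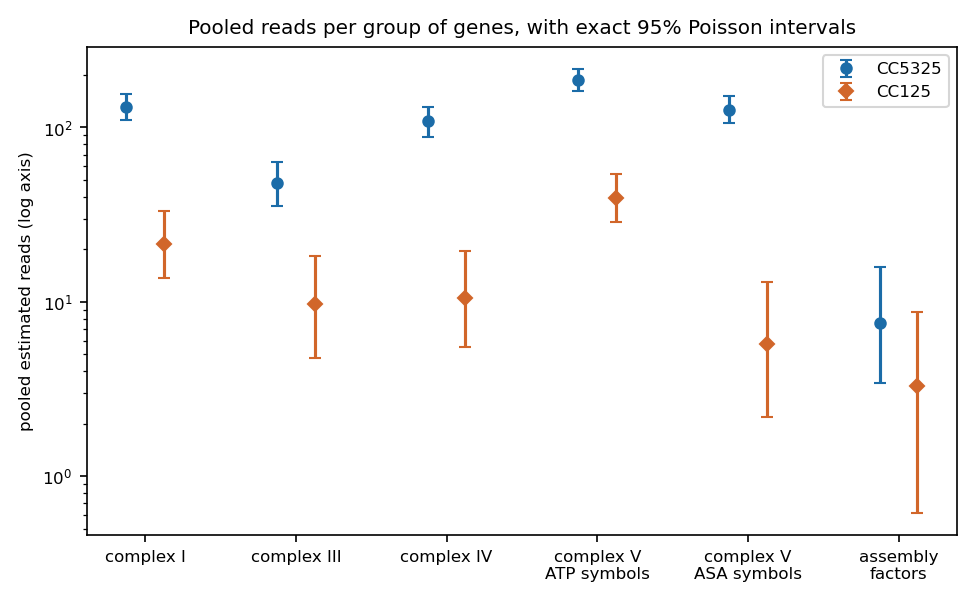
Pooled estimated reads (log axis) of each group of genes in the CC5325 and CC125 libraries, with exact 95% Poisson intervals that cover counting error. The ASA genes held 127 reads in CC5325 and 5.73 in CC125, and the ATP genes 187 and 39.7.

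Per gene length, subunits of complexes III, IV and V stood above those of complex I in CC5325. The median level was 0.304 TPM over complex IV members (quartiles 0.279 and 0.393), 0.221 TPM over complex V (0.158 and 0.400), 0.193 TPM over complex III (0.121 and 0.275) and 0.0643 TPM over complex I (0.0121 and 0.130). The quartile ranges of complexes III and V overlap, as do those of IV and V, while the range of complex III ends just below that of IV. Those of complexes IV and V lie above that of complex I, and that of complex III overlaps it. The median over all nuclear reference genes was 0.00603 TPM. In CC125 the medians were 0.0250 TPM for complex IV, 0.0247 TPM for complex V, 0.0236 TPM for complex III and 0 for complex I, with lower quartiles at 0, so no order is read there.

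**Figure D3:**
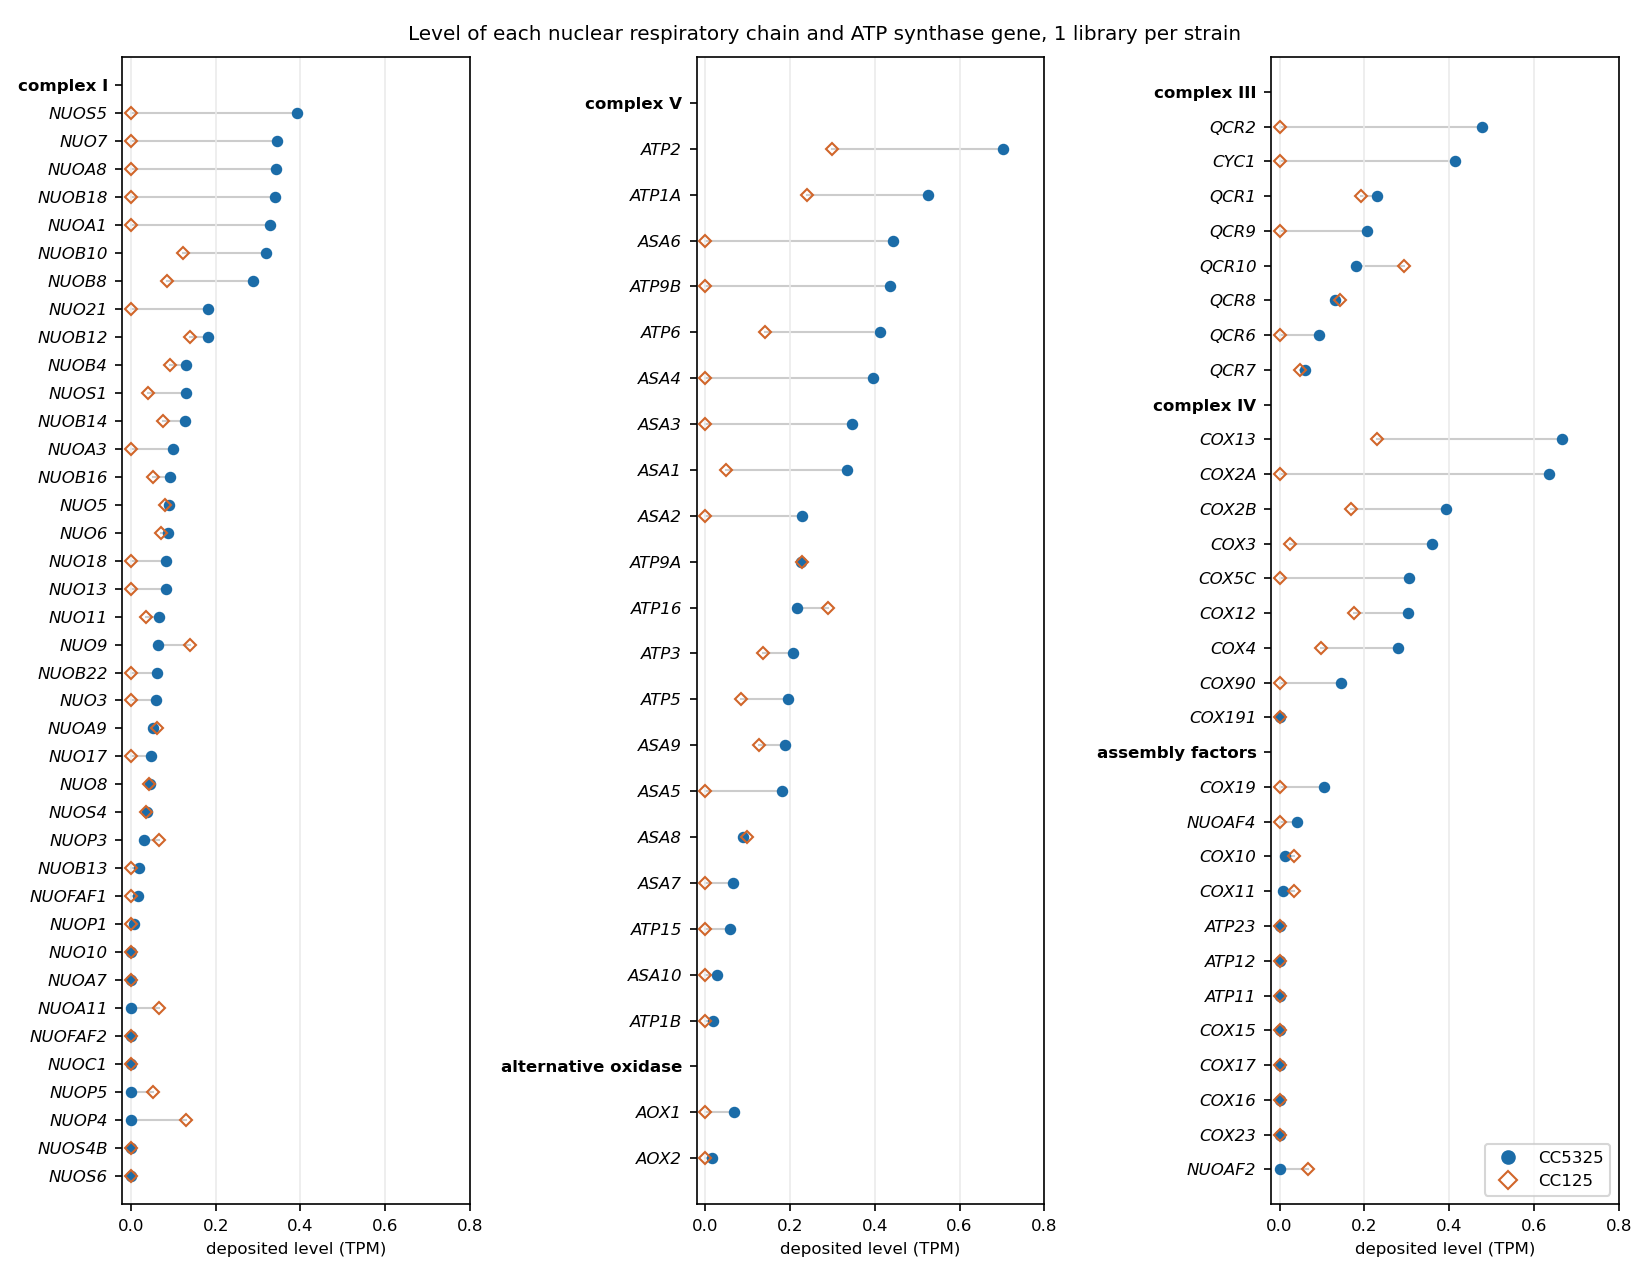
Deposited level of each member in TPM (x axis) in CC5325 (filled circles) and CC125 (open diamonds), by complex, with a grey line joining the values of a gene. No member reached 1 TPM, against 1.15% of nuclear reference genes in CC5325 and 0.619% in CC125. By TPM 14 of 90 members stood higher in CC125, on at most 3.31 estimated reads there. The share of nuclear genes higher in CC125 is not given here.

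Complex I, the largest group, was listed at 30 of 39 genes in CC5325 and 18 in CC125. NUO7 (Cre09.g405850, chromosome 9, 5031373 to 5036818), the 49 kDa-type core subunit near the quinone site, held 32.0 estimated reads in CC5325 (Poisson interval 21.9 to 45.2), or 0.345 TPM, and was listed at 0 in CC125. It is the complex I gene with the most reads. NUOS1, the 75 kDa-type subunit of the electron input arm, had 0.129 TPM (CC5325) and 0.0409 TPM (CC125), with a ratio of coverages of 3.84 (0.955 to 37.0). NUO6, the NADH-binding flavoprotein, stood at 0.0881 and 0.0722 TPM, a ratio of 1.48 (0.410 to 9.44). NUOB8, a membrane arm subunit, stood at 0.288 and 0.0854 TPM, a ratio of 4.10 (0.779 to 238). None of these 3 intervals leaves out equality.

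Short accessory subunit genes were among the highest of complex I per length, on few reads. NUOS5 reached 0.392 TPM in CC5325 on 2.70 estimated reads, and on 1.69 to 4.70 reads NUOA8, NUOB18 and NUOA1 reached 0.342, 0.341 and 0.328 TPM, each listed at 0 in CC125. Of the complex I subunits moved from mitochondrial DNA to the nucleus, NUO3 and NUO11 stood near the complex I median in CC5325. NUO3 (the ND3 subunit) stood at 0.0597 TPM in CC5325 and at 0 in CC125, and NUO11 (the ND4L subunit) at 0.0655 and 0.0368 TPM. NUO9, a subunit of the peripheral arm, stood at 0.0643 and 0.139 TPM, with 2.26 and 2.21 estimated reads. NUO10 was listed at 0 in both libraries.

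All 8 complex III genes were listed in CC5325 and 4 in CC125. QCR1 and QCR2 encode the large core proteins on the matrix side. QCR1 (Cre12.g523850, chromosome 12) held 18.4 estimated reads in CC5325 and 6.97 in CC125, or 0.229 and 0.193 TPM, a coverage ratio of 1.44 (0.561 to 3.99). QCR2 (Cre12.g509750, chromosome 12) held 15.3 in CC5325, listed at 0.477 TPM where its coverage gives 0.303 TPM, and was at 0 in CC125. In CC125 1 gene of the core pair was thus listed and the other was not. Their Poisson intervals there, 2.81 to 14.4 reads for QCR1 and 0 to 3.69 for QCR2, overlap. CYC1, cytochrome c1, which passes electrons on to cytochrome c, stood at 0.415 TPM in CC5325 on 5.94 reads and at 0 in CC125. The small subunit gene QCR10 had 0.181 TPM (CC5325) and 0.294 TPM (CC125), the latter next to ATP2 among members, from 1.84 and 1.35 reads. QCR8 stood at 0.130 and 0.142 TPM.

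Complex IV had the highest median level, with 8 of 9 genes listed in CC5325 and 5 in CC125. COX13 (Cre12.g537450, chromosome 12, 6443170 to 6445519), a small subunit outside the catalytic core, stood at 0.667 and 0.230 TPM on 26.7 and 4.15 reads, a coverage ratio of 3.52 (1.29 to 14.5). COX2A (Cre03.g154350, chromosome 3), the front fragment of subunit II, stood at 0.636 TPM in CC5325 on 21.1 reads and at 0 in CC125. COX2B (Cre01.g049500, chromosome 1), the rear fragment, stood at 0.393 and 0.169 TPM on 4.35 and 0.843 reads. The genes for these fragments of 1 protein were therefore both listed in CC5325, and COX2B alone in CC125. COX3 (Cre04.g221700, chromosome 4, 2444765 to 2449008), a core subunit, had 0.360 TPM (CC5325) and 0.0250 TPM (CC125), on 26.0 and 0.815 reads. Its coverage ratio of 17.5 (2.34 to 584) was the highest among the 16 members listed in both libraries with at least 10 reads over both. A gene on the opposite strand overlaps 89.8% of the COX3 span, and without strand information reads of the pair cannot be told apart. COX4 stood at 0.279 and 0.0969 TPM and COX12 at 0.304 and 0.176 TPM, with ratios of 3.50 (0.806 to 32.5) and 2.09 (0.470 to 10.3). COX5C (0.304 TPM) and COX90 (0.145 TPM) were listed in CC5325 and at 0 in CC125.

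Complex V held the most estimated reads, which grow with span, and its ATP2 had the highest TPM of the members in each library. ATP2 (Cre17.g698000, chromosome 17, 304030 to 309098), the catalytic beta subunit, held 60.6 estimated reads in CC5325 (46.7 to 78.4) and 11.6 in CC125 (6.20 to 21.0), the sole member with 10 or more in CC125. Its levels were 0.703 and 0.298 TPM, a coverage ratio of 2.86 (1.48 to 5.68). ATP1A, the alpha subunit that alternates with beta in the head, stood at 0.525 and 0.239 TPM, a ratio of 2.66 (1.26 to 6.11). A further alpha-type symbol, ATP1B, stood at 0.0180 TPM in CC5325 and at 0 in CC125. ATP3, the gamma subunit of the central stalk, stood at 0.206 and 0.137 TPM, a ratio of 1.82 (0.749 to 5.81). ATP5, the subunit that joins head and peripheral stalk, stood at 0.196 and 0.0843 TPM. ATP6, the proton channel subunit, stood at 0.412 and 0.140 TPM, a ratio of 3.57 (1.18 to 13.5). The delta subunit gene ATP16 had 0.216 and 0.289 TPM, the higher in CC125, with a coverage ratio of 0.908 (0.178 to 5.88) that does not leave out equality.

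The c-ring genes ATP9A and ATP9B lie side by side on chromosome 17 on opposite strands. ATP9A stood at 0.227 TPM in both libraries, a coverage ratio of 1.21 (0.292 to 7.66), and ATP9B at 0.436 TPM in CC5325 and at 0 in CC125. Both encode the c subunit, so reads can be split between them and their division is uncertain.

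Within complex V the ASA genes were less represented in CC125 than the ATP genes. In CC5325 all 10 ASA genes and all 10 ATP genes were listed, and in CC125 3 and 7. The ASA genes held 127 estimated reads in CC5325 and 5.73 in CC125, 12.1-fold per aligned base (5.18 to 32.2). The ATP genes held 187 and 39.7, 2.59-fold (1.81 to 3.70). Per nuclear gene read the ASA genes were at 3.69-fold (1.58 to 9.83) and the ATP genes at 0.790-fold (0.554 to 1.13), so the direction for the ATP genes turns with the scale. The ratio of these ratios was 4.68 with an exact conditional interval of 1.83 to 13.4. Per summed TPM the ASA genes stood at 2.30 and 0.277 (8.30-fold), and the ATP genes at 2.996 and 1.42 (2.12-fold). This division of complex V was chosen after the values were seen, and with 1 library per strain its interval says nothing of variation between cultures or libraries. Median spans were 2385 bases for ASA genes and 3816 for ATP genes.

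Most of the ASA reads in CC5325 lay in 4 genes. ASA1 (Cre07.g340350, chromosome 7), a peripheral stalk subunit, held 33.5 reads in CC5325 and 2.24 in CC125, or 0.333 and 0.0494 TPM, a coverage ratio of 8.19 (2.39 to 80.0). ASA3, ASA4 and ASA2 held 25.1, 25.7 and 21.2 reads in CC5325, or 0.345, 0.395 and 0.227 TPM, and each was listed at 0 in CC125. ASA6 stood at 0.443 TPM in CC5325, on 5.18 reads, and at 0 in CC125. The remaining ASA genes listed in CC125 were ASA9, at 0.187 and 0.128 TPM, and ASA8, at 0.0894 and 0.0996 TPM. A neighbour on the opposite strand overlaps 87.8% of the ASA9 span.

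The alternative oxidase genes were near the floor. AOX1, whose transcript is known to respond to the nitrogen source in this alga, stood at 0.0675 TPM in CC5325 on 4.92 estimated reads, and AOX2 at 0.0163 TPM on 1.18. Both were listed at 0 in CC125. Their 6.11 reads in CC5325 against 0 in CC125 are just above the 5.48 that 3 reads would stand for. The lower end of the pooled ratio was 0.645 per aligned base and 0.197 per nuclear gene read, so equality is included. No difference was detectable for the pair or for either gene alone. Assembly factors were as low. Of 12, 4 were listed in CC5325 and 3 in CC125, on 7.60 and 3.29 reads in all, a ratio of 1.26 (0.351 to 8.55). NUOAF4, for complex I, stood at 0.0403 TPM in CC5325 and COX19, a copper-handling protein of the intermembrane space, at 0.105 TPM, both at 0 in CC125. COX11, which inserts copper into subunit I, stood at 0.00885 and 0.0340 TPM, and COX10, the heme O synthase, at 0.0124 and 0.0350 TPM. NUOAF2 was listed at 0.0664 TPM in CC125 and at 0 in CC5325.

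Counted gene by gene on coverage, the members' shares lay near those of nuclear genes. On log2(TPM + 1), 0 members had the mean of 1 TPM that the 2-fold rule asks for. This rule could therefore call no member, and gives no share to set beside nuclear genes (38.5% of 156 higher and 4.49% lower). By coverage per aligned base, 22 members had at least 10 estimated reads over both libraries, and a member passes this limit mainly through CC5325, the deeper library. In 17 the CC5325 value was 2-fold or more above that of CC125, against 75.1% of 1396 nuclear genes. In 0 it was 2-fold or more below, against 3.01%. The CC125 value was 0 for 6 of the 22 members, all among the 17, and for 334 of the 1396 nuclear genes. On the scale of nuclear gene reads 8 were higher, against 41.0%, and 3 were lower, against 19.5%. The 8 were COX3, ASA1 and the 6 listed at 0 (NUO7, QCR2, COX2A, ASA2, ASA3 and ASA4), and the 3 were QCR1, NUO6 and ATP9A. Over the 16 members listed in both libraries the median coverage ratio per aligned base was 2.84, and over 1060 such nuclear genes 3.18.

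Other lists of genes of mitochondrial energy metabolism gave pooled ratios per aligned base from 2.46 to 11.3, with wide intervals. Complex II (succinate dehydrogenase, SDH1 to SDH4) was listed at 4 of 4 genes in CC5325 and 3 in CC125, with a pooled ratio of 2.46 (1.16 to 5.71). The Rieske gene RIP1, the iron-sulfur subunit of complex III, stood at 0.127 and 0.181 TPM. Type II NADH dehydrogenases, which bypass complex I, were listed at 5 and 3 of 6 genes, with a ratio of 10.9 (3.80 to 38.2) from 3.74 estimated reads in CC125. Most of their summed TPM in CC5325, 0.590 of 0.694, lay in 1 gene. Mitochondrial carriers were listed at 4 and 1 of 6 genes, with a ratio of 11.3 (3.51 to 53.7) from 2.87 reads in CC125. Tricarboxylic acid cycle symbols, some of which mark isoforms outside the mitochondrion, were listed at 18 and 10 of 20 genes, with a ratio of 5.04 (3.39 to 7.59). The members' ratio over each of these 4 lists had an interval that included 1, the closest being that over the type II dehydrogenases, 0.342 (0.0950 to 1.01).

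Against translation and plastid lists the members' ratio was higher. Cytosolic ribosomal protein genes, at 10499 and 3676 estimated reads, gave 1.56-fold (1.51 to 1.62), and the members' ratio over theirs was 2.38 (1.89 to 2.997). Nuclear genes of the plastid ATP synthase and photosynthetic carriers gave 1.16-fold (0.956 to 1.41), and the members' ratio over theirs was 3.21 (2.38 to 4.33). These lists also stood below the 3.27-fold of nuclear genes, so the gap is not particular to the members. The 8 mitochondrially encoded genes, which include the remaining core subunits of complexes I, III and IV, gave 0.598-fold (0.417 to 0.878), and 1.80-fold (1.03 to 3.18) without nad1, which held most of their CC125 reads. The members' ratio over theirs was 6.23 (3.94 to 9.50), and 2.07 (1.11 to 3.81) without nad1.

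**Figure D4:**
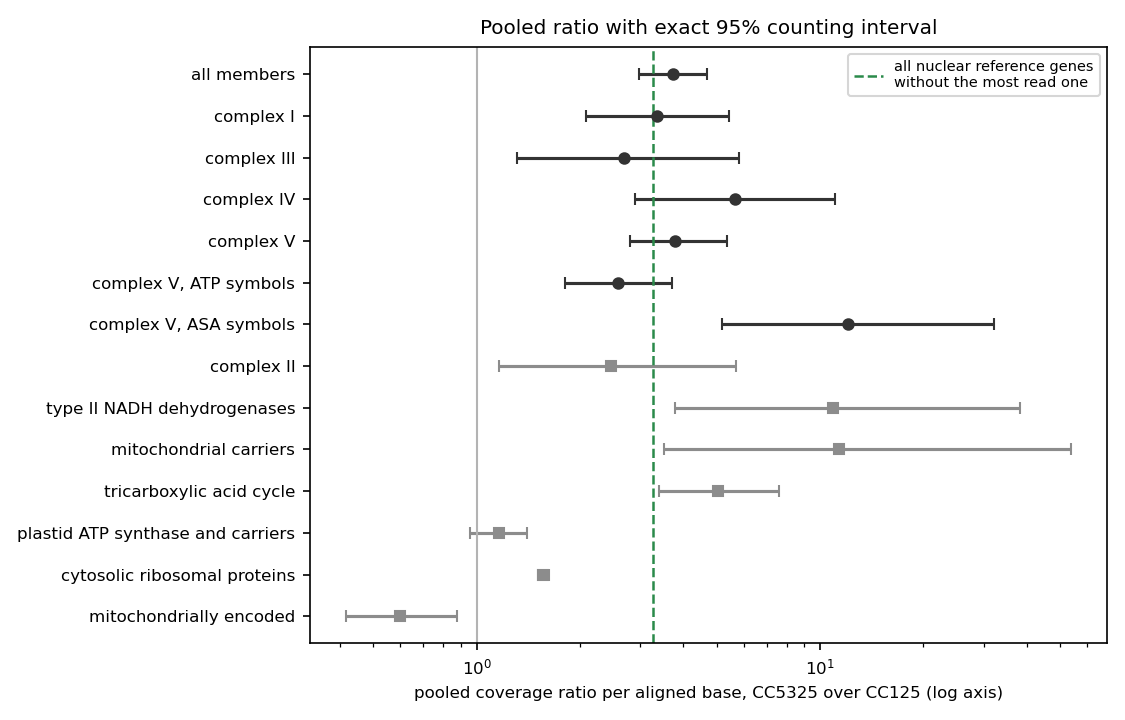
Pooled coverage ratio per aligned base, CC5325 over CC125 (log axis), with exact 95% counting intervals, for the members (circles) and other lists (squares). The dashed line marks 3.27-fold, the value of all nuclear reference genes without the most read one, which lies inside the intervals of complexes I, III, IV and V and below that of the ASA genes.

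Loci assembled from the reads, which the comparisons above do not use, lay in some members in CC5325. They come from the same libraries as the gene rows, so they are no independent measure. Nuclear genes of like coverage were not compared. Of 90 members 18 held at least 1 such locus in CC5325, against 5.26% of nuclear reference genes, and 0 did in CC125, against 1.04%. They were 9 of 20 complex V genes, 4 of 9 complex IV genes, 2 of 8 complex III genes and 3 of 39 complex I genes. The 27 loci lay within the gene's ends and on its strand, with coverages of 1.02 to 5.06 reads per base. The highest lay in COX3, in the part of the gene nearer its 3′ end, and the next in ATP2. In ASA6 and COX13 the locus had the ends and coverage of the gene's own row, so these reads are listed in both rows.

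**Figure D5:**
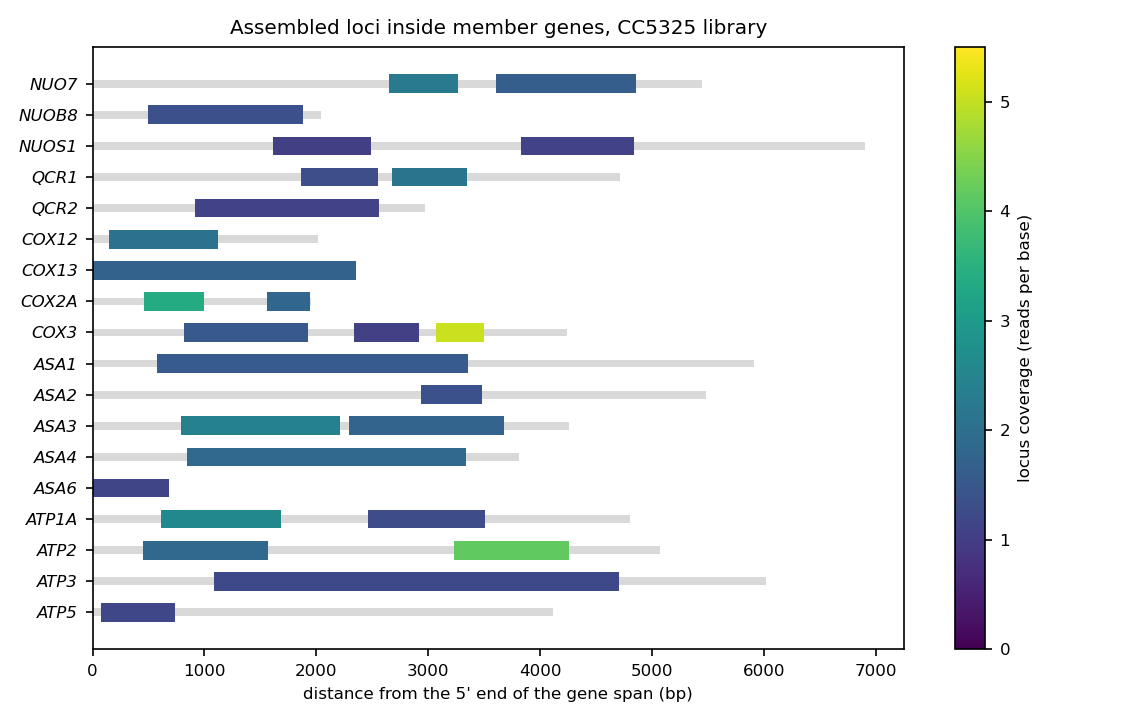
Assembled loci (coloured bars, colour for coverage in reads per base) along the span of each of the 18 members that hold one in CC5325 (grey bars, distance from the 5′ end in bases). The CC125 library has none in these genes.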

How the data were processed

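Per the labels, Trizol RNA had its ribosomal RNA depleted and was sequenced from both fragment ends (150 bases each), though the molecule field says polyA RNA. The submitters' processing notes name StringTie 2.2.3, HISAT2 2.2.1, FastQC 0.12.1 and Trimmomatic. Neither settings nor strand handling is stated (not given in the sources used here). Per the file headers, the deposited values are Coverage (a signal, reads per base), FPKM and TPM for 17693 reference genes, with identifiers and coordinates of the CC-4532 version 6.1 annotation, and for assembled loci (1146 in CC5325 and 219 in CC125). TPM of assembled loci adds up to 1000000 in each library, so values of reference genes come on top.

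Estimated reads are Coverage times span over 150, upper limits. Ratios were scaled by aligned bases (Coverage over FPKM) or by nuclear gene reads without the most read gene. Intervals (Poisson, binomial, conditional odds ratio, at 95%, on reads rounded to whole numbers) cover counting error only, and are the narrowest the depth allows because estimated reads are upper limits and mates are not independent. No fold is given against a value of 0. The ratio and interval code was tested on simulated data.

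The members and lists were chosen with earlier results of these data known. Named genes were the 4 members per group with most reads, those with the highest and lowest ratio at 10 or more reads, formerly mitochondrial genes, both AOX genes, and members listed in CC125 alone; others were named after their values were seen. The symbol searched for cytochrome c matched 0 genes. In the plastid list, symbols had to match in full. Intervals came from scipy 1.17.1 under Python 3.11.15, tables from pandas 2.3.3 with numpy 2.4.6, and plots from matplotlib 3.10.9. Alternatives changed the denominator, the measure, the members, the detection threshold, the pseudocount and the filter.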

Additional observations from a re-analysis of the deposited data

Results flagged for a closer look

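Rows of assembled loci lie outside the comparisons of reference genes, and in CC5325 they overlapped 18 members, against 0 in CC125. The shares of all nuclear reference genes were 5.26% in CC5325 and 1.04% in CC125. Of the 27 loci, 24 had a higher coverage than the gene row that holds them. A gene row averages over the whole gene and most loci over a covered part of it. The higher coverage follows largely from that. CC5325 had 1146 assembled loci in all and CC125 219, and the part of this difference in the result was not tested.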

How the results depend on the processing

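The size of the pooled ratio rests on the scale, and for complex III and the assembly factors its direction does too. Per read in all nuclear reference genes it was 2.04 for the members, 1.84 for complex I, 2.08 for complex V and 0.692 for assembly factors. Without the most read gene it was 1.14, 1.02 for complex I, 0.821 for complex III, 1.72 for complex IV, 1.16 for complex V and 0.386 for assembly factors, and without the block of 36 genes at the left end of chromosome 1 as well (7052 reads in CC5325 and 16 in CC125, none of them in a member; chosen after seeing the data) 1.25, 1.13, 0.904, 1.90, 1.27 and 0.425. Per ribosomal protein read it was 2.38, 2.42 for complex V and 0.807 for assembly factors. Without NUOAF4 the assembly factors stood at 0.442, and without QCR1 complex III at 5.82. Each scale divides by another total; for NUOAF4 and QCR1 the cause was not tested. Summed TPM or FPKM, leaving out the most read member of another group, leaving out COX3 and ASA9, and moving NUOFAF1, NUOFAF2 and COX191 kept the other ratios within their counting intervals. Splitting complex V, chosen after seeing the data, gave 2.59 for ATP and 12.1 for ASA genes, and 0.790 and 3.69 per nuclear gene read.

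At 1 or more estimated reads, CC125 listed 25 members (against 12.7% of nuclear genes; 9 in complex I, 2 in III, 3 in IV), and CC5325 2 assembly factors. At 3 or more, CC5325 listed 39 (against 22.0%; 13 in complex I, 3 in III, 1 AOX gene, 1 assembly factor) and CC125 9 (against 3.76%; 1 each in complexes I, III and IV, 6 in V, 0 assembly factors). At 1 TPM the count was 0 in each group, against 1.15% of nuclear genes in CC5325 and 0.619% in CC125. With the most read gene included, shares in CC5325 and CC125 were 0.578% and 0.283% for the members, 0.124% and 0.0674% for complex I, 0.0449% and 0.0304% for III, 0.102% and 0.0329% for IV, and 0.294% and 0.142% for V. Without ribosomal protein genes they were 0.942% and 1.0% for the members and 0.480% and 0.504% for V. The 2-fold count on log2(TPM + 1) was 0 in each planned setting, an outcome fixed by all members being below 1 TPM. By coverage among members with 10 or more reads, added after seeing the data, the count was 17 per aligned base and 11 per nuclear gene read. Because 0 members have a mean of 1 TPM, the median log2 ratio exists only with no filter (0.062 over 90 members, 0 over 17611 nuclear genes) and from 0.25 TPM (0.31 over 7 members, 0.42 over 389). No paired analysis was possible because each strain has 1 library, which also leaves no replicate to omit.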
